A study of Arabidopsis thaliana with 8 samples.

Results

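Submerged adult shoots of Arabidopsis thaliana, the weedy crucifer that serves as the main model of plant genetics, were compared with submerged juvenile shoots. The groups were taken from the source label of each sample, which placed 2 of the 8 arrays in the submerged adult group and 2 in the submerged juvenile group. The titles of these 4 samples carry the word dark, whereas their source, description and treatment fields give submergence. On their arrays all 32 genes of a hypoxia core list lay above the dark controls of the same age (limma adjusted p under 0.05). Of all loci, 15.5% did so in juvenile and 14.6% in adult shoots. The list was chosen with earlier results of these data known, so the count is a description and not a test of the label. Plants of 2 weeks were taken as juvenile and plants of 3 weeks as adult, grown singly in pots of soil under a 12 h photoperiod. Both groups spent 24 h under 25 cm of deionised water in darkness, so darkness was shared by all plants compared. The other 4 arrays, from plants of the same ages kept for 24 h in dark tanks without water (2 per age), gave the difference of age without submergence. Ecotype, plants per sample and array model are not given in the sources used here.

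Under water, gas exchange slows, and tissue in the dark becomes short of oxygen and sugar. Plants then turn from respiration to fermentation through a core set of hypoxia genes. Strained mitochondria signal to the nucleus by retrograde signalling, in which the transcription factor NAC017 raises genes such as alternative oxidases, while glutathione transferases and glucosyltransferases conjugate reactive or toxic compounds. The passage from the juvenile to the adult phase of leaf production is controlled by the microRNAs miR156 and miR172 and by the SPL and AP2-like transcription factors that they repress.

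Each array gave a log2 value for 27826 loci, and array medians lay between 6.13 and 6.30. The 2 submerged juvenile arrays lay at least 2-fold apart at 615 loci and the 2 submerged adult arrays at 508. Pairs of 1 submerged juvenile and 1 submerged adult array lay that far apart at 732 to 1062 loci. The shoot label was checked against marker genes. Means over 5 leaf markers lay between 10.86 and 11.01 on the submerged arrays and means over 5 root markers between 3.17 and 3.41. Means over 5 flower markers were 4.63 and 4.40 in submerged juvenile and 4.86 and 4.76 in submerged adult shoots. PI, a floral homeotic gene, was the bright member of the flower list, at 8.95 and 8.53 in submerged juvenile and 8.83 and 8.97 in submerged adult shoots. All 5 flower markers had a difference above 0 under water, and 2, AP1 (0.70) and AG (0.50), had non-overlapping arrays and an unadjusted limma p under 0.05. Of the leaf, root and flower markers 0 were called between the submerged ages, and the part of flower tissue in the results was not tested.

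Adult shoots under water had lower levels of a small group of genes than juvenile shoots. With limma, at a Benjamini-Hochberg adjusted p under 0.05, 35 of 27826 loci were called (0.126%), of which 32 were lower in adult shoots (0.115%) and 3 were higher (0.0108%). The lower group held an alternative oxidase, a non-pumping NAD(P)H dehydrogenase, a glutathione transferase, a glucosyltransferase and defence genes. It also held 1 gene of the cell cycle and 1 of stomatal patterning. Its differences ran from -4.36 to -1.06 on the log2 scale, with a median of -1.76 and standard errors between 0.11 and 0.44. Adjusted p-values of all 35 loci lay between 0.0253 and 0.0459, so the calls were close to the threshold. In 31 of the 32, every adult array lay at least 1 log2 unit below every juvenile array, which was the case at 105 of all loci (0.377%). The 105 loci with that gap stood against 12 with the same gap in the other direction (0.0431%).

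At an unadjusted p under 0.05 the excess of lower loci was smaller, with 3282 loci (11.8%) divided into 1840 lower (6.61%) and 1442 higher (5.18%). Over all loci, 47.2% of differences were below 0 and 52.8% above. Dark control arrays take no part in the difference under water, but they enter the shared estimate of each gene's spread. Their omission therefore left the differences under water unchanged and could alter the calls only through that estimate. The number called under water changed on omission of any array, dark controls included. It was 0 without any one of 6 of the arrays, 26 without adult submerged replicate 2 and 96 without juvenile submerged replicate 2. In bulk shoots, fewer cells of a type and less RNA per cell cannot be told apart.

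**Figure D1:**
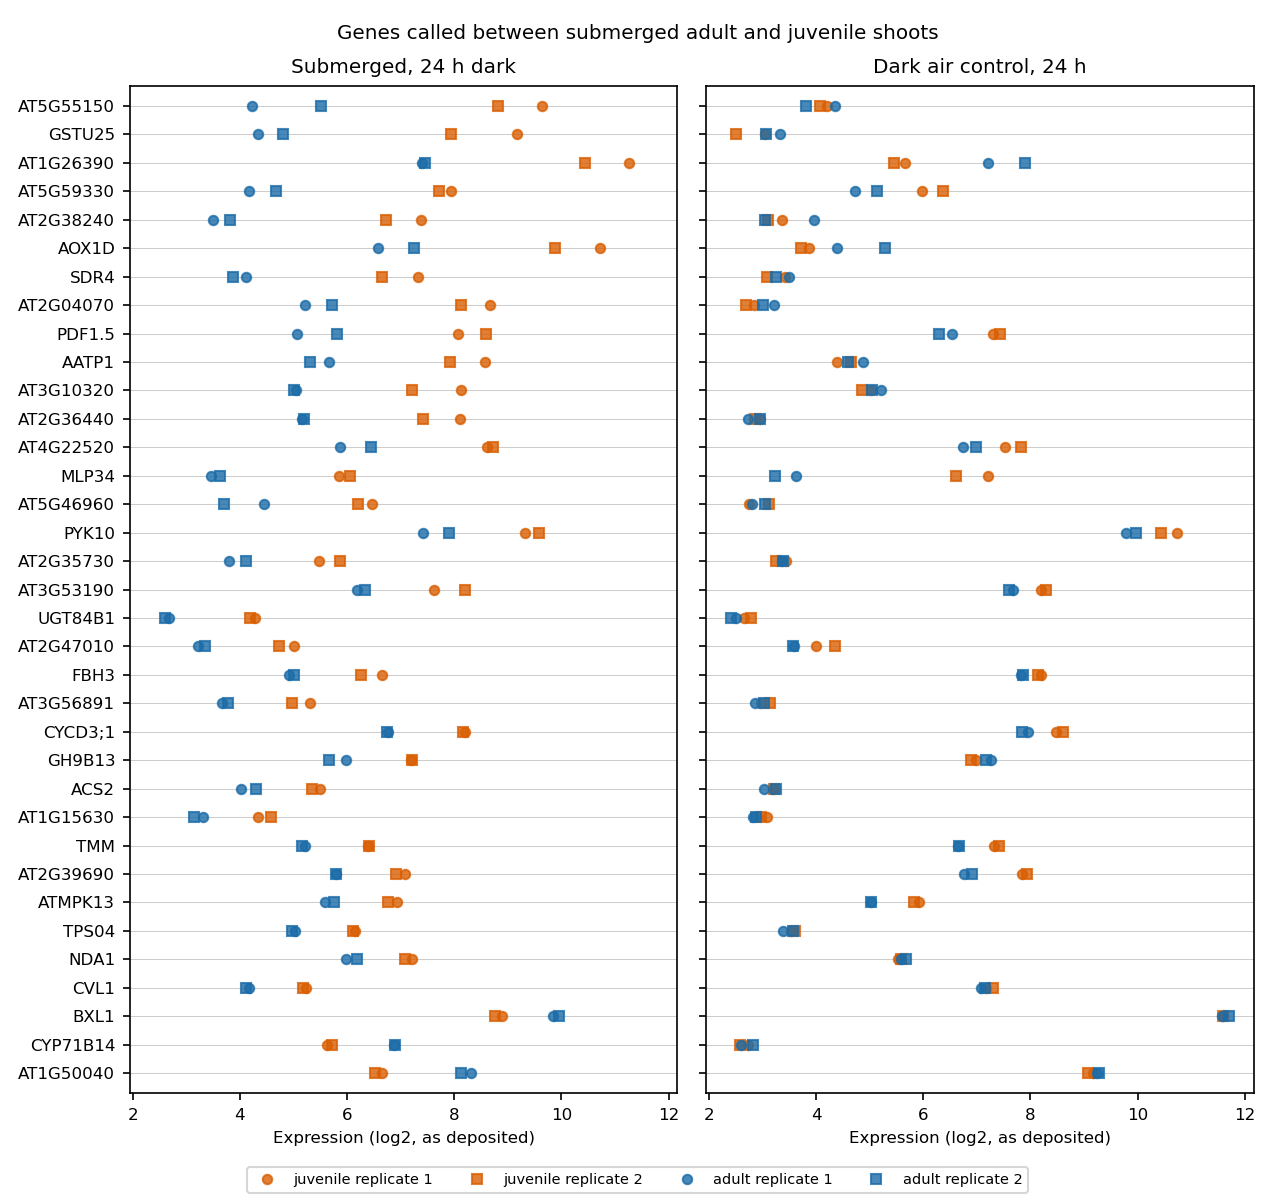
Log2 values (horizontal axis, as deposited) of the 35 called loci, 1 locus per line, with submerged arrays in the left panel and dark control arrays in the right; colour marks the age, and circles and squares mark replicates 1 and 2. Under water the 32 lower loci differ by -4.36 to -1.06 and the 3 higher loci by 1.08 to 1.63.

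Genes of mitochondrial electron transport formed the first set. AOX1D (AT1G32350), an alternative oxidase that passes electrons from ubiquinol straight to oxygen, read 10.71 and 9.88 in submerged juvenile shoots and 6.57 and 7.26 in submerged adult shoots. The ages were widely separated, with a difference of -3.38 ± 0.39 (log2 difference ± SE, n = 2 per group; 10.4-fold; limma adjusted p 0.0459). Dark control values of AOX1D were 3.86 and 3.72 in juvenile and 4.39 and 5.29 in adult shoots, so it was the adult controls that read higher (difference 1.05, unadjusted limma p 0.0320). Submergence raised AOX1D at both ages, by 6.51 in juvenile and 2.07 in adult shoots. NDA1 (AT1G07180), an NAD(P)H dehydrogenase that feeds the same chain without pumping protons, read 7.21 and 7.08 in juvenile and 5.99 and 6.18 in adult shoots under water. Its difference was smaller and its replicates closer (-1.06 ± 0.12, limma adjusted p 0.0459), and the ages differed by 0.07 in dark controls.

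Enzymes of detoxification and conjugation followed. GSTU25 (AT1G17180), a tau class glutathione transferase, read 9.18 and 7.93 in juvenile shoots against 4.34 and 4.81 in adult shoots under water (difference -3.98 ± 0.40, 15.8-fold, limma adjusted p 0.0318). In dark controls it was dim at both ages, between 2.51 and 3.32. SDR4 (AT3G29250), a short-chain dehydrogenase, read 7.32 and 6.65 in juvenile and 4.11 and 3.88 in adult shoots (-2.99 ± 0.24, limma adjusted p 0.0253). Submergence raised SDR4 by 3.74 in juvenile shoots, whereas the adult response of 0.62 was not called (limma adjusted p 0.0941).

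UGT84B1 (AT2G23260), a glucosyltransferase that conjugates the auxin indole-3-acetic acid, read 4.28 and 4.19 in juvenile and 2.67 and 2.61 in adult shoots under water. The adult values lay among those of the dark controls, which ran from 2.41 to 2.78. AATP1 (AT5G40010), an AAA-type ATPase, read 8.58 and 7.92 in juvenile and 5.67 and 5.32 in adult shoots (-2.76 ± 0.25, limma adjusted p 0.0277). Its dark control values, between 4.39 and 4.88, showed no comparable gap.

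A set of hormone and defence genes was also lower in submerged adult shoots. ACS2 (AT1G01480), which makes the ethylene precursor ACC, read 5.50 and 5.34 in juvenile and 4.01 and 4.29 in adult shoots under water, against 3.03 to 3.25 in all dark controls. TPS04 (AT1G61120), a terpene synthase that makes geranyllinalool, read 6.16 and 6.12 in juvenile and 5.04 and 4.98 in adult shoots. Both genes were raised by submergence at both ages, ACS2 by 2.22 and 1.01 and TPS04 by 2.57 and 1.53 in juvenile and adult shoots. PDF1.5 (AT1G55010), a plant defensin, read 8.07 and 8.59 in juvenile and 5.07 and 5.81 in adult shoots under water (-2.89 ± 0.27, limma adjusted p 0.0309). Submergence raised PDF1.5 by 0.97 in juvenile shoots and lowered it by 0.98 in adult shoots. PYK10 (AT3G09260), the beta-glucosidase of endoplasmic reticulum bodies, was lowered by submergence at both ages. It read 9.33 and 9.58 in juvenile and 7.42 and 7.90 in adult shoots under water, and 10.74, 10.43, 9.78 and 9.97 in the juvenile and adult dark controls.

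Genes of growth and patterning made up another set. CYCD3;1 (AT4G34160), a D-type cyclin that promotes entry into the cell cycle, read 8.20 and 8.16 in juvenile and 6.77 and 6.75 in adult shoots under water (-1.42 ± 0.11, limma adjusted p 0.0253). In dark controls it read 8.47 and 8.61 against 7.96 and 7.84 (difference -0.64, unadjusted limma p 0.0008). TMM (AT1G80080), a receptor-like protein that patterns stomata, read 6.39 and 6.40 against 5.21 and 5.15 under water, and 7.32 and 7.42 against 6.64 and 6.67 in dark controls. Both genes were lowered by submergence at both ages. MLP34 (AT1G70850), a major latex protein-like gene, was the 1 locus of the 32 that was also called in dark controls. It read 5.84 and 6.05 in juvenile and 3.47 and 3.63 in adult shoots under water, and 7.20 and 6.61 against 3.62 and 3.24 in dark controls (difference -2.40 under water and -3.48 in the dark; interaction 1.08, limma adjusted p 0.554).

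ATMPK13 (AT1G07880), a mitogen-activated protein kinase, read 6.93 and 6.76 against 5.58 and 5.75 under water and differed by -0.85 in dark controls. FBH3 (AT1G51140), a basic helix-loop-helix factor known to act in flowering and in abscisic acid signalling of guard cells, read 6.65 and 6.27 in juvenile and 4.92 and 5.003 in adult shoots. CVL1 (AT2G32010), related to the vein-patterning phosphatase CVP2, read 5.23 and 5.18 against 4.17 and 4.12. GH9B13 (AT4G02290), of a glycosyl hydrolase family that acts on cellulose, read 7.20 and 7.21 in juvenile and 5.99 and 5.66 in adult shoots under water. For GH9B13 the adult dark controls read slightly higher than the juvenile ones, at 7.26 and 7.17 against 6.99 and 6.89.

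Loci with no symbol in the RefSeq table, given here by code, made up 15 of the 32. The widest difference among all 35 was at AT5G55150, which read 9.64 and 8.83 in juvenile and 4.23 and 5.51 in adult shoots (20.6-fold, -4.36 ± 0.44, limma adjusted p 0.0318). Its dark control values lay between 3.81 and 4.36 at both ages. AT1G26390, from the list of BBE-like oxidases, read 11.26 and 10.44 against 7.40 and 7.45 under water and had the opposite order in dark controls, at 5.66 and 5.45 against 7.21 and 7.90. AT2G38240, from the jasmonate list, read 7.38 and 6.72 against 3.497 and 3.82. AT5G59330, from the list of lipid transfer proteins, read 7.93 and 7.72 against 4.18 and 4.67, and AT2G04070, from the retrograde list, 8.67 and 8.12 against 5.21 and 5.73. In each of these 5 loci the juvenile arrays lay at least 1 unit above the adult arrays.

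The other 10 coded loci differed by smaller amounts. AT3G10320, AT2G36440, AT4G22520 and AT5G46960 differed by -2.65, -2.59, -2.51 and -2.27. The differences of AT2G35730, AT3G53190 and AT2G47010 were -1.71, -1.64 and -1.58, and those of AT3G56891, AT1G15630 and AT2G39690 were -1.42, -1.23 and -1.20.

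Only 3 loci were called as higher in submerged adult shoots. AT1G50040, known by its code, read 6.66 and 6.53 in juvenile and 8.32 and 8.13 in adult shoots (difference 1.63 ± 0.12, limma adjusted p 0.0253). BXL1 (AT5G49360), a beta-xylosidase that acts on cell wall xylans, read 8.90 and 8.76 against 9.85 and 9.96 (1.08 ± 0.12, limma adjusted p 0.0357). Both were lowered by submergence at each age, from dark control values of 9.07 to 9.27 and of 11.58 to 11.70. CYP71B14 (AT5G25180), a cytochrome P450, was raised by submergence instead, from between 2.59 and 2.82 to 5.62 and 5.71 in juvenile and 6.88 and 6.89 in adult shoots.

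Just past the threshold lay loci with non-overlapping arrays. On the higher side, MIR172a, the precursor of a microRNA that represses AP2-like genes, read 8.19 and 8.47 in juvenile and 9.54 and 9.37 in adult shoots (limma adjusted p 0.0743). ASN1 (AT3G47340), an asparagine synthetase induced by sugar shortage, read 10.17 and 10.42 against 11.22 and 11.44 (limma adjusted p 0.0722). The other three were AT1G51860, the MADS-box gene AGL17 and the tubulin gene TUA3, with differences of 1.44, 1.04 and 0.88. On the lower side, CLE13, a gene of a small signalling peptide, read 4.92 and 4.28 against 2.92 and 2.92 (limma adjusted p 0.0535). It was followed by AT4G22485, AT2G28790, AT1G43910 and AT5G06670, with differences of -2.88, -1.95, -1.62 and -0.95.

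Age without submergence was measured in the dark controls. There 15 loci were called (0.0539%), and 11 of them were higher in adult shoots (0.0395%) and 4 lower (0.0144%). Of the 32 loci lower in submerged adult shoots, 21 also had a dark difference below 0, or 65.6%, where 49.1% of all loci did and 50.9% had one above 0. The median dark difference of the 32 was -0.10, against -1.76 under water. At an unadjusted p under 0.05, 11 of the 32 were lower in adult dark controls (4.55% of all loci) and 2 were higher (5.57%). The 11 were MLP34, AT5G59330, AT2G39690, PDF1.5, ATMPK13, AT4G22520, TMM, PYK10, CYCD3;1, AT3G53190 and AT2G47010, and the 2 were AT1G26390 and AOX1D. The submerged and dark arrays are separate, but both comparisons used 1 estimate of each gene's spread, which links their p-values. Counted by arrays alone, both adult dark arrays lay below both juvenile ones at 15 of the 32 loci (22.3% of all loci) and above them at 6 (23.8%).

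**Figure D2:**
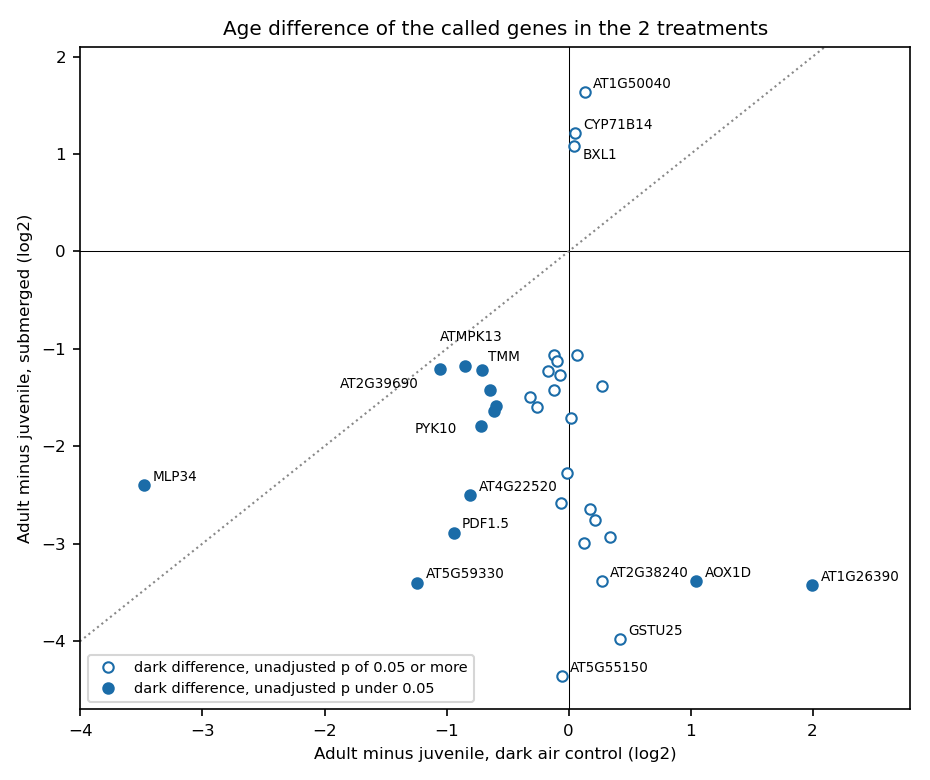
Log2 difference of adult minus juvenile shoots under water (vertical axis) against that in dark controls (horizontal axis) for the 35 called loci, each from 2 arrays per group; filled points have an unadjusted p under 0.05 in dark controls, and the dotted line marks equal differences. MLP34 has a dark difference of -3.48, AT1G26390 one of 2.00, and the other loci lie between -1.24 and 1.05 on the horizontal axis.

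The 32 loci also differed in how submergence had moved them. In juvenile shoots 23 were raised by submergence (15.5% of all loci were) and 7 were lowered (18.8%). In adult shoots 11 were raised (14.6%) and 10 lowered (18.9%). All 11 were among those raised at both ages, and 6 were lowered at both. These responses share the submerged arrays with the comparison of ages, so a locus that is high in submerged juvenile shoots is favoured to be raised there, and the counts are given as a description. The test of whether the response itself depended on age, the interaction, called 0 loci (0%), with a smallest limma adjusted p of 0.143, at AT1G26390. At an unadjusted p under 0.05 it held 2030 loci (7.3%). Its median standard error, 0.23, was wider than that of the difference under water, 0.16.

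Gene lists of 11 processes were described by counts and medians, beside the median of all loci, 0.02. The share of all loci with both adult arrays below both juvenile arrays under water was 18.3%, and the share with both above was 20.7%. In dark controls these shares were 22.3% and 23.8%. The retrograde list stood lowest. Of its 23 measured genes 3 were called as lower in adult shoots (AOX1D, NDA1 and AT2G04070) and 0 as higher, 13 had both adult arrays below both juvenile arrays and 1 had them above, and the median difference was -0.71. The list mean was 8.82 and 8.09 on the juvenile and 7.28 and 7.58 on the adult arrays under water, and 5.42 and 5.26 on the juvenile and 5.59 and 5.53 on the adult dark control arrays. In dark controls the list had the opposite order, with both adult arrays above both juvenile arrays in 13 genes and below in 5, a median of 0.34 and 0 genes called. Replicate 1 of the juvenile group was the highest of the 4. The median was -0.31 without that array and -1.05 without juvenile replicate 2.

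The regulator NAC017 (AT1G34190) read 9.45 and 9.59 in juvenile and 9.72 and 9.59 in adult shoots, with a difference of 0.14 that was not called (limma adjusted p 0.73). Among other members that were not called, AT5G09570 read 10.26 and 8.28 against 5.70 and 6.53, and AT2G21640 9.17 and 7.89 against 6.29 and 6.40. UGT74E2, a glucosyltransferase of the auxin indole-3-butyric acid, read 10.72 and 9.96 against 7.74 and 8.86. In these 3 genes the juvenile arrays lay above the adult arrays, with replicate 1 above replicate 2 in juvenile and below it in adult shoots. AOX1A, the alternative oxidase most often used as a marker of this pathway, overlapped, with 9.997 and 9.04 in juvenile and 8.17 and 9.06 in adult shoots.

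Of 28 tau class glutathione transferases 1, GSTU25, was called as lower and 0 as higher, and 12 had both adult arrays below both juvenile arrays against 2 above. The median was -0.34, and -0.21 without juvenile replicate 1. In dark controls 9 of the 28 lay above (23.8% of all loci) and 7 below (22.3%), with a median of 0.01. GSTU8 read 7.61 and 6.80 in juvenile and 4.58 and 5.13 in adult shoots (limma adjusted p 0.106), GSTU3 read 8.88 and 7.52 against 6.31 and 5.28, and GSTU1 read 7.43 and 5.80 against 3.74 and 4.58. GSTU26, by contrast, was dim and overlapped, at 4.11 and 4.01 against 4.33 and 3.65. Probes shared by close family members could mix their signals.

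**Figure D3:**
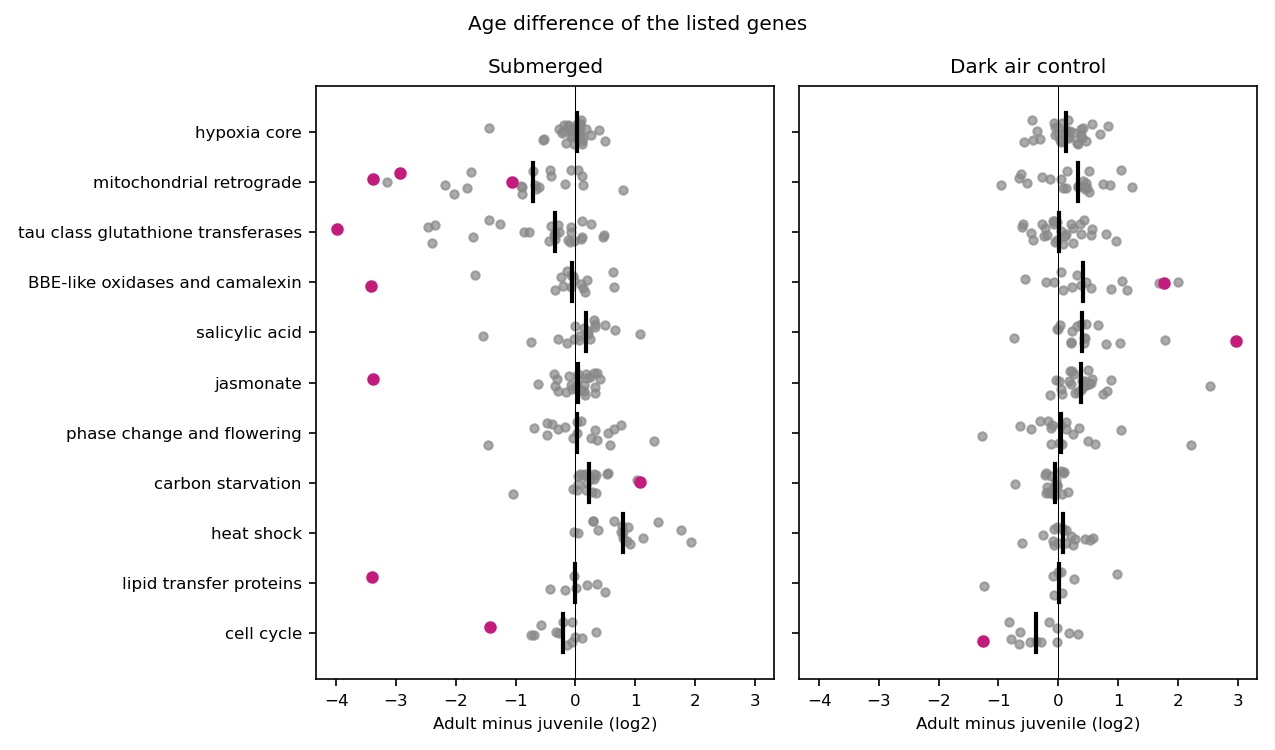
Log2 difference of adult minus juvenile shoots under water (left) and in dark controls (right) for every measured member of the 11 lists, 1 point per gene; vertical bars are list medians and larger coloured points are called genes. Under water the medians run from -0.71 in the retrograde list to 0.79 in the heat shock list.

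The heat shock list lay at the other end. Of its 17 genes 0 were called in either direction, 8 had both adult arrays above both juvenile arrays and 0 below, and the median was 0.79. List means of 6.78 and 6.41 in juvenile shoots stood against 6.97 and 7.83 in adult shoots, so that adult replicate 2 was the highest array. The median was 0.36 without that array, 1.26 without adult replicate 1 and 0.51 without juvenile replicate 2. HSP70 (AT3G12580), a chaperone, read 7.89 and 8.02 against 8.95 and 9.72 (limma adjusted p 0.129), and HSFA2, a heat shock factor, 4.29 and 3.94 against 5.13 and 5.37 (limma adjusted p 0.108). HSP21, a plastid small heat shock protein, read 4.88 and 4.80 against 6.14 and 7.43.

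Of 21 carbon starvation genes 1, BXL1, was called as higher in adult shoots and 0 as lower, 14 had both adult arrays above both juvenile arrays and 1 below, and the median was 0.23. This median stayed between 0.20 and 0.34 under the alternatives tried. The order was different in dark controls, where 11 genes lay below (22.3% of all loci) and 2 above (23.8%), with a median of -0.06. Submergence lowered 12 of the genes in juvenile shoots and 9 in adult shoots, and raised 1 at each age. IVD, an enzyme of leucine breakdown, read 11.79 and 11.84 in juvenile and 12.08 and 12.06 in adult shoots, and ETFQO, which passes the electrons of that breakdown to ubiquinone, 9.91 and 9.80 against 10.26 and 10.15. Both differences were small and not called. DIN2, a beta-glucosidase of the same list, had the opposite order, at 9.23 and 8.41 against 7.39 and 8.16.

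**Figure D4:**
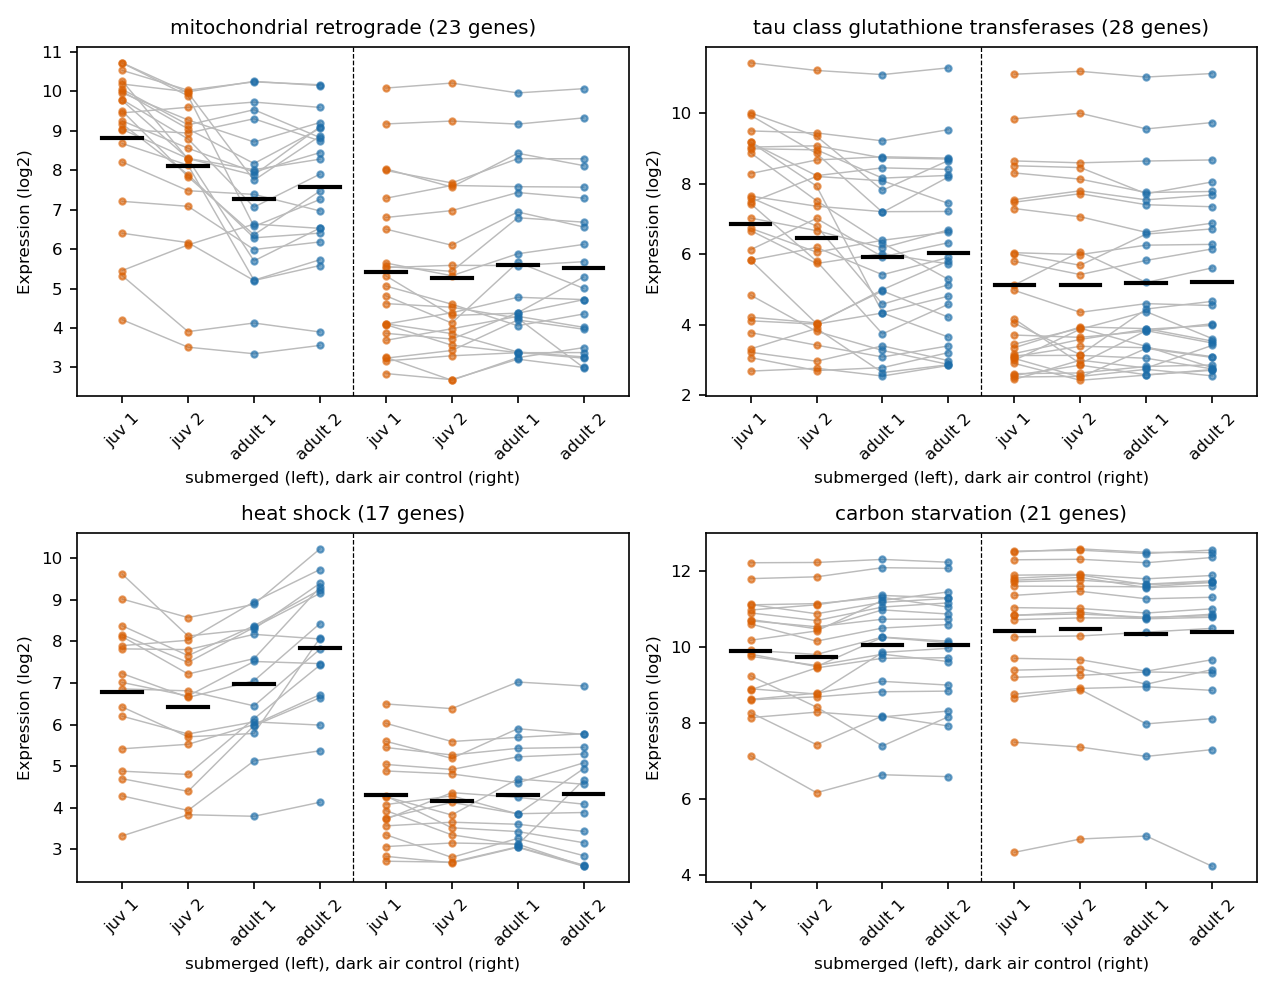
Log2 values of each member of 4 lists (retrograde, tau class glutathione transferases, heat shock, carbon starvation) on the 8 arrays, with grey lines joining a gene's values and black bars at the list mean; submerged arrays are left of the dashed line and dark controls right. The retrograde means run from 7.28 to 8.82 under water and the heat shock means from 6.41 to 7.83.

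The hypoxia core list was at nearly the same mean level on all 4 submerged arrays. All 32 genes were raised by submergence at each age, where 15.5% of all loci were in juvenile and 14.6% in adult shoots. Under water 0 were called as different between the ages, 7 had both adult arrays above both juvenile arrays and 7 below, and the median difference was 0.02. Its mean was 10.36 and 10.31 in juvenile and 10.29 and 10.27 in adult shoots, a spread far narrower than the rise from dark control means of 5.18 to 5.37.

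Of 19 measured genes of phase change and flowering 0 were called, 7 had both adult arrays above and 5 both below the juvenile arrays, and the median was 0.03. SPL5 (AT3G15270), an SPL factor of the adult phase, read 4.71 and 4.90 in juvenile and 5.57 and 5.32 in adult shoots (limma adjusted p 0.147). The AP2-like repressor of flowering SMZ (AT3G54990) read 6.74 and 6.96 against 5.45 and 5.33 (limma adjusted p 0.110), and its relative SNZ 4.83 and 5.09 against 4.07 and 4.48. These 3 genes had non-overlapping arrays, and FT, the mobile flowering signal, overlapped at 3.12 and 2.93 against 3.11 and 2.98. The differences of SPL5, SMZ and SNZ were 0.64, -1.46 and -0.69 under water and 1.04, -1.28 and -0.63 in dark controls. Among 13 cell cycle genes CYCD3;1 was the 1 called as lower, 6 had both adult arrays below and 0 above, and the median was -0.21, against -0.37 in dark controls. The median under water was -0.10 on centred arrays and -0.32 without adult replicate 2.

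Defence lists were mixed. Of 18 salicylic acid genes 0 were called, with 4 above, 1 below and a median of 0.18, which was 0.28 on centred arrays and ran from -0.17 without juvenile replicate 2 to 0.35 without juvenile replicate 1. In dark controls 10 lay above (23.8% of all loci) and 1 below (22.3%), with a median of 0.40. PR1, a pathogenesis-related protein, read 7.61 and 7.22 in juvenile and 8.64 and 8.33 in adult shoots under water (limma adjusted p 0.177). In dark controls PR1 was called as higher in adult shoots, at 3.09 and 3.40 against 5.91 and 6.54 (difference 2.98, limma adjusted p 0.042). ALD1, which makes the precursor of the defence signal pipecolic acid, had the opposite order under water, at 4.97 and 5.48 against 3.93 and 3.42 (limma adjusted p 0.0934). Of 26 jasmonate genes AT2G38240 was called as lower and 0 as higher, with 8 above, 4 below and a median of 0.05. Their dark controls had 15 above and 0 below, with a median of 0.39. Of 16 BBE-like oxidase and camalexin genes AT1G26390 was called as lower and 0 as higher, with 3 above and 2 below. The median of -0.06 became 0.05 when arrays were centred on their medians. Dark controls of this list had 10 above and 1 below, with a median of 0.42 and 1 gene called. CYP71A13, an enzyme of camalexin synthesis, read 7.96 and 8.27 against 6.45 and 6.42 (limma adjusted p 0.0885). Of 8 lipid transfer proteins AT5G59330 was called as lower and 0 as higher, 3 lay below and 2 above, and the median of -0.01 became 0.09 on centred arrays.

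Of the 117 loci whose submerged ages lay at least 1 unit apart, 17 sat in 6 runs of neighbours, counted as at most 5 steps apart in the order of annotated genes. The longest run was AT4G22485, AT4G22505, AT4G22510, AT4G22513, AT4G22517 and AT4G22520, all known by code, with differences of -2.88, -2.27, -2.62, -3.75, -2.63 and -2.51. In dark controls the same 6 loci were also lower in adult shoots, by -1.10, -1.32, -1.08, -1.42, -0.96 and -0.81. The unadjusted limma p there was under 0.05 at all but AT4G22513. Only AT4G22520 of the 6 was called under water. AT4G22513 varied most between replicates, with 8.24 and 8.77 in juvenile and 3.43 and 6.07 in adult shoots under water. PYK10 and GSTU8 were neighbours, as were GSTU1 and GSTU3. DREB19, a transcription factor of drought and salt responses, read 8.89 and 7.45 against 4.90 and 5.33 beside AT2G38380 and AT2G38390, whose values were 6.91 and 6.78 against 4.69 and 4.34, and 7.27 and 6.87 against 4.18 and 4.48. The differences of AT2G38380 and AT2G38390 were -2.33 and -2.74 under water and -2.25 and -2.61 in dark controls. DREB19 differed by -3.06 under water and by -0.03 in dark controls. Members of a run were named after their values were seen, and probes shared by close copies could give neighbours the same signal.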

How the data were processed

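Shoot RNA of 8 samples (4 groups of 2) was measured on Affymetrix arrays. The authors deposited log2 values made with RMA, and limma is also named, per the submitters' processing notes, with no build or version. The table held 27826 loci and 0 columns of no sample. Symbols came from RefSeq (TAIR10.1), which matched 27241 codes (97.9%).

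With limma 3.58.1 in R 4.3.3, 1 mean per group was fitted to the 8 arrays and variances were moderated (4 residual and 2.99 prior degrees of freedom, prior SD 0.156). Contrasts were tested two-sided and adjusted by Benjamini-Hochberg over 27826 loci; a call is an adjusted p under 0.05. With 2 arrays per group an exact permutation test reaches p 0.333 at best, so calls rest on variance shared across loci. No source says that replicates came from separate plantings, so p-values measure the spread between these samples, which may be technical. The number of arrays limits precision. Figures were drawn with matplotlib 3.10.9.

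The comparison, its members and the 11 lists (223 genes, 221 measured), compiled from general knowledge, were chosen with earlier results of these data known. Named genes were every called locus, the 5 uncalled loci of smallest p in each direction with non-overlapping arrays, and the 2 members of smallest p in each direction per list. Other listed genes were named after their values were seen. The fit was tested on simulated data. Promoter and protein sequences were not analysed here. Alternatives were array centring, quantile normalization, an intensity trend with a robust prior, omission of the dimmer 50% of loci, a fit of 4 arrays, a replicate block and omission of each array.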

Additional observations from a re-analysis of the deposited data

Results flagged for a closer look

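At 12 of the 79 named genes the ages differed in opposite directions under water and in dark controls, with arrays that did not overlap in either treatment. Over all 27826 loci 1520 did so, but many named genes were chosen for their difference under water, so these counts cannot be compared. The dark difference had an unadjusted limma p under 0.05 only at AT1G26390, AOX1D, AT1G43910, GSTU8 and CYP71A13. At the other named genes of this group it was weaker, for example 0.07 for LTP and -0.05 for ASN1. The interaction (log2 difference under water minus that in dark controls) was called with limma at 0 of the 12. It was -5.43 for AT1G26390, the locus with the smallest limma adjusted p (0.143), where adult minus juvenile was -3.43 ± 0.31 under water and 2.00 in dark controls. It was -4.43 for AOX1D and -4.41 for GSTU25, each with a limma adjusted p of 0.190. CYP71A13 had an interaction of -2.83 and ALD1 one of -1.77 (limma adjusted p 0.304). For GSTU8 it was -3.31, for AT2G04070 -3.27, for AT3G10320 -2.82, for AT1G43910 -2.25 and for GH9B13 -1.65. ASN1 went the other way, at 1.09 (limma adjusted p 0.278). The lipid transfer gene LTP (AT2G15050) had the smallest, -0.50 ± 0.22 (limma adjusted p 0.700).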

How the results depend on the processing

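The direction of the 35 called genes was the same in all 468 values computed under the alternatives, but this was largely fixed in advance. All 35 had non-overlapping submerged arrays, so omission of 1 array could not reverse a direction. Several other alternatives left the difference itself unchanged. The calls themselves were not stable. Under water, where 35 genes were called, centring on medians called 22 (all among the 35), quantile normalization 29 (28 shared), omission of the dimmer 50% of loci 33 (13 shared) and the intensity trend with a robust prior 264 (35 shared). The 13 shared without the dimmer loci were all of the 35 that this setting still tested. The rest of the 35 were left out there and did not lose their call in a test. The share called as higher was 8.6%, and became 21.2% without the dimmer loci and 37.1% with the trend. A fit restricted to the 4 submerged arrays called 0, with a smallest limma adjusted p of 0.186. The replicate block called 4, of which 3 were shared; same-numbered submerged arrays deviated with r = -0.113, so the numbers do not pair samples. A block with the adult numbers crossed, chosen after seeing the data, called 8. Omission of 1 array gave 0 to 96.

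In dark controls 15 genes were called, and 59 without dimmer loci, 149 with the trend, 0 in a fit of 4 arrays, 8 with the replicate block and 0 to 2 when 1 array was omitted. The share called as higher there was 73.3%, and 53.3% after centring. The interaction called 0 genes, 28 with the trend, and 0 to 23 when 1 array was omitted, the 23 without juvenile submerged replicate 2.

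Of 1059 values for the 79 named genes 8 changed sign. DIN9 was 0.069 after centring and 0.038 after quantile normalization, and ran from -0.52 to 0.45 when 1 array was omitted, the latter without juvenile submerged replicate 1. HSP18.2 was 0.079 after centring and ran from -0.77 to 0.72, with 0.52 without adult submerged replicate 1 and 0.72 without juvenile submerged replicate 1. FMO1 ran from -1.62 to 0.14 and CDKB1;1 from -0.030 to 0.26, both changing sign without adult submerged replicate 2. Centring shifted the median of all loci by 0.11, from 0.02 to 0.12, and quantile normalization gave the hypoxia list a median of -0.02. The causes were not tested. Probe-level background was not used here, so dim genes may carry compressed differences.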
